A study of Mus musculus with 3 samples.

Results

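O48 is the androgenetic haploid ESC line from which Dmpk, Six5, Mbnl1 and Dmwd were later disrupted, and its genome before that editing was compared here with the mouse reference. Whole-genome sequencing covered 3 lines with 1 library each. They were O48 (labelled WT, strain C57BL/6, passage 40), ΔDSM-O48-1 (Dmpk;Six5;Mbnl1-KO, passage 60) and ΔDSMD-O48-2 (mutated in Dmwd as well, passage 70), which was made from ΔDSM-O48-1. All 3 lines lack the H19 and IG DMRs, since O48 itself is an H19ΔDMR-IGΔDMR line, and all were kept in 2i/Lif medium. Each line is clonal or a descendant of a clone, so the values describe these cultures and not the strain. The deposited table lists 11635 exonic positions at which at least 1 line was called, and 11544 of them have a single-base reference and alternate allele. Of these, 9447 were read at least 10 times in O48 and had the alternate base in at least 5% of reads. Sites at 80% or more of reads, 4310 in number, are called fixed, and the 5137 sites from 5% to below 80% are called mixed. Both classes were chosen by the share of alternate reads in O48, so the shares are given as a description, with no test.

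An androgenetic haploid ESC carries 1 set of chromosomes, all from a sperm. A base that differs from the reference at a place found once in such a genome appears in all reads or in none, unless part of the culture differs or some cells have become diploid and changed. Reads from similar copies of a sequence that are placed on 1 copy of the reference also give a site with both bases. The mouse reference was made from C57BL/6J mice.

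The sequences below show what the 2 classes look like. Each is printed 5′ to 3′ on the strand named, from GRCm38.p6, with the bases that differ in capitals, and the alternate form is that sequence with the alternate bases of the table. The first pairs are fixed sites in coding exons, chosen because they gain or lose a stop codon or a start codon. In Scnm1, which encodes a splicing factor (chr3:95130181-95130209, minus strand), the reference has the stop codon tga and O48 has cga. The Scnm1 allele of C57BL/6J is known for a premature stop at this codon.
Scnm1 reference: gccccaccaaacgaTgagtcctgaaccat
Scnm1 O48: gccccaccaaacgaCgagtcctgaaccat
In Kir3dl1, an immunoglobulin-like receptor gene (chrX:136533938-136533978, plus strand), 4 fixed sites lay within 41 bases, and the last one, T136533970G, gained a stop.
Kir3dl1 reference: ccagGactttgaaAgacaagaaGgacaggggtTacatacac
Kir3dl1 O48: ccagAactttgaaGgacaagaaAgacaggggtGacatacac
In Bace2, a membrane protease gene (chr16:97412048-97412076, plus strand), C97412062A gained a stop.
Bace2 reference: ccttctgcagccatCaagctctctggaga
Bace2 O48: ccttctgcagccatAaagctctctggaga
In Mybpc3, the gene of cardiac myosin-binding protein C (chr2:91118169-91118197, plus strand), the table reports the loss of a start codon. The next ATG of the window begins 24 bases downstream, in the same frame.
Mybpc3 reference: atGcctggtgtgactgttctcaagatgcc
Mybpc3 O48: atAcctggtgtgactgttctcaagatgcc
At these 7 sites every O48 read had the alternate base, at depths of 27 to 32 reads. The next pairs are mixed sites in the untranslated regions of the cell cycle inhibitor gene Cdkn2a (chr4:89274583-89274603, minus strand) and of the transcription factor gene Myc (chr15:61985338-61985358, plus strand), chosen because each alternate base joins neighbouring bases into a longer run of 1 letter. The shares of alternate reads were 20% to 40% in Cdkn2a and 38.9% to 53.3% in Myc.
Cdkn2a reference: aaggAgggAgggAgggAggga
Cdkn2a alternate: aaggGgggGgggGgggGggga
Myc reference: atccccGcccAcccGcccttt
Myc alternate: atccccCcccCcccCcccttt
The last pair is a mixed site of the vomeronasal receptor gene Vmn2r121 (chrX:124127768-124127798, plus strand), chosen because the alternate 31 bases are found as reference sequence elsewhere, at 2 places, the first of them on chromosome 10. The alternate base was in 35 of 58 O48 reads.
Vmn2r121 reference: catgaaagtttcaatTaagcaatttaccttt
Vmn2r121 alternate: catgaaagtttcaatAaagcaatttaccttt

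The shares of alternate reads lay mostly at the top of the scale or far below it. At 3929 of the 4310 fixed sites every read had the alternate base, and 381 fixed sites had at least 1 reference read. The mixed sites had a median share of 25% with quartiles of 15.6% and 40%, and 84.8% of them (95% Clopper-Pearson interval, 83.8% to 85.8%) were below 50%. The bins became thinner up to the boundary, with 83 sites from 75% to below 80% and 75 sites from 80% to below 85%. The median depth of these 2 bins was 130 and 156 reads. The 5 sites just below the boundary had shares of 79.5% to 79.9%, and 3 of them were in Heatr7b1, 1 in Hjurp and 1 in a gene model. The 5 sites just above it had shares of 80% to 80.6%, in Cgn, Tdpoz3, Tmem109 and 2 gene models. Intervals given here cover counting error only, since reads of PCR-amplified libraries are not independent molecules.

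**Figure D1:**
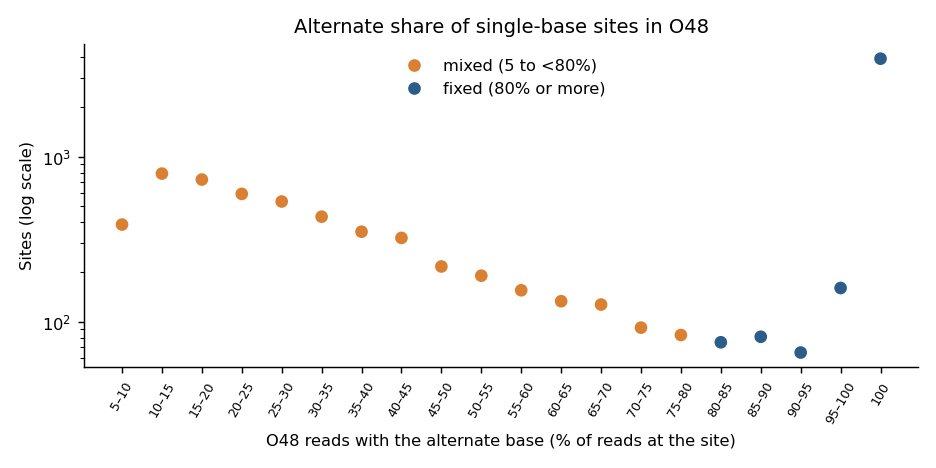
Number of single-base sites in O48 (vertical axis, log scale) in each bin of the share of reads with the alternate base (horizontal axis, percent), with mixed sites in orange and fixed sites in blue. The bin at exactly 100% holds 3929 sites, and the bins next to the boundary at 80% hold 83 and 75.

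Fixed sites of ordinary depth had the same median depth on the autosomes and on the X chromosome. The fixed sites up to 64 reads, which is 2 times the median depth of all single-base positions, had a median of 30 reads on the autosomes (3949 sites) and also 30 reads on the X chromosome (89 sites). Both sites on the Y chromosome were in 1 gene model, LOC100861837, where 76 of 76 and 18 of 216 reads had the alternate base. The mitochondrial genome had 1 site, P79S in ND6, a subunit of respiratory complex I. Its alternate base was in 1089 of 3028 reads in O48 (36%), in 28.5% of reads in ΔDSM-O48-1 and in 27.0% in ΔDSMD-O48-2.

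Fixed sites lay on few chromosomes. Chromosome 11 held 1267 (29.4%), chromosome 2 held 816 (18.9%) and chromosome 3 held 808 (18.7%), so these 3 chromosomes had 67.1% of all fixed sites. With chromosomes 4, 18 and 9 the share was 88.9%. Chromosome 12 had no fixed site, and the upper bound of the exact 95% interval was 0.0856% of all fixed sites. With chromosome 12 included, 10 of the chromosomes 1 to 19, X and Y had fewer than 20 fixed sites each, with 90 in all. Per Mb of RefSeq exon, fixed sites ranged from 0 on chromosome 12 to 151 on chromosome 11. Mixed sites were more even, from 12.5 per Mb of exon on chromosome 9 to 98.2 on chromosome 1, leaving aside the Y chromosome and the mitochondrial genome. Chromosomes 1, 4 and 5 had 38.3% of the mixed sites. No test was made of these counts, because sites near each other are inherited together.

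**Figure D2:**
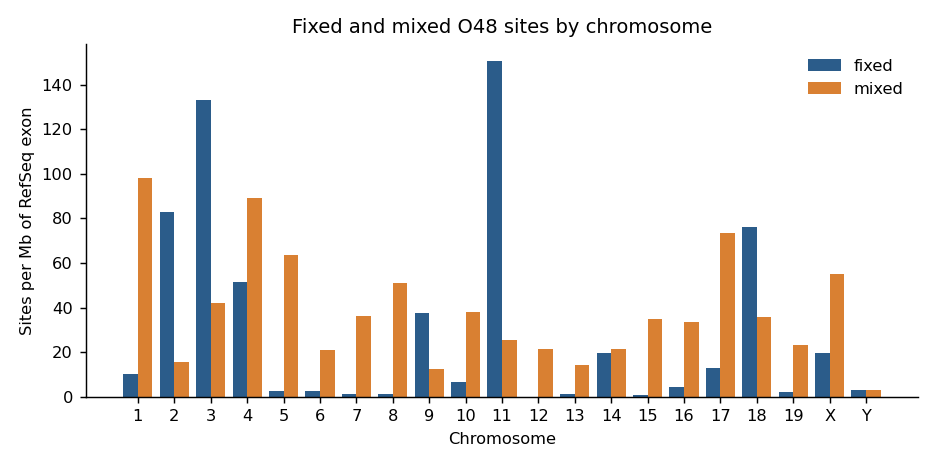
Fixed (blue) and mixed (orange) O48 sites per Mb of RefSeq exon (vertical axis) on each chromosome (horizontal axis). Fixed sites reach 151 per Mb on chromosome 11, 133 on chromosome 3 and 82.8 on chromosome 2 and are absent on chromosome 12, whereas mixed sites occur on every chromosome.

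Within these chromosomes the fixed sites lay in long blocks. Windows of 1 Mb with at least 5 fixed sites of ordinary depth (up to 64 reads) were joined where at most 4 Mb lay between them, a rule chosen after the values were seen. This gave 9 intervals on 8 chromosomes, 83.6 Mb long in all. They held 3726 of the 4310 fixed sites (86.5%) but 4.09% of the RefSeq exon sequence of chromosomes 1 to 19, X and Y. Fixed sites numbered 735 per Mb of exon inside them and 4.91 outside. Mixed sites, which the rule did not use, numbered 55.0 per Mb of exon inside and 40.9 outside. The interval with most sites was chr11:38492864-56040927, with 1156 fixed sites in 146 genes. Then followed chr2:75832213-92454070 with 796 sites in 190 genes, chr3:75037960-95989405 with 793 sites in 162 genes and chr4:86216976-103311732 with 301 sites in 52 genes. The short interval chr9:121141842-123781637 had 246 sites in 33 genes. The others were chr18:66417369-71420274 with 223 sites, chr14:116925673-118986831 with 99, chrX:135624141-137118653 with 83 and a second interval on chromosome 4, chr4:114854368-115039144, with 29. The median depth of the fixed sites was 29 to 32 reads in each of the 9 intervals. Single windows outside the intervals added 55 fixed sites on chromosome 4 around Heyl and Hpcal4, and 35 on chromosome 18 around the desmosomal cadherin genes Dsg3, Dsg2, Dsc2 and Dsc3.

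The genes that the study disrupted, and the H19 and Meg3 genes beside the DMRs that O48 already lacked, were not in these intervals. No fixed or mixed site was annotated to H19, Meg3, Dmpk, Six5, Dmwd or Mbnl1. Mbnl1 is on chromosome 3, and the nearest fixed site was 14.3 Mb away. On chromosome 7, which carries Dmpk, Six5, Dmwd and H19, there were 12 fixed sites, the nearest of them 4.54 Mb from Dmpk and 0.646 Mb from H19. Meg3, next to the IG DMR, is on chromosome 12, which had no fixed site.

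Over all depths, fixed sites changed amino acids less often than mixed sites. Among the fixed sites 1272 were nonsynonymous and 1313 synonymous, a ratio of 0.969. Among the mixed sites 2094 were nonsynonymous and 1027 synonymous, a ratio of 2.04. The nonsynonymous share of coding sites was thus 49.2% (47.3% to 51.2%) at fixed sites and 67.1% (65.4% to 68.7%) at mixed sites (odds ratio 2.10, two-sided Fisher's exact test, adjusted p = 1.8e-42 over a family of 9 properties). The ratio was higher at mixed sites on 8 of the 11 chromosomes with at least 20 coding sites of each class. By depth, the ratio was higher at mixed sites from 20 to 64 reads and from 130 to 259 reads. It was 1.16 at fixed and 1.1 at mixed sites from 10 to 19 reads, 2.33 and 2.32 from 65 to 129 reads, where 1052 of 1065 sites were mixed, and 2.26 and 2.27 from 260 reads on. In named genes, which leaves out gene models without a proper symbol, it was 0.648 at fixed and 1.66 at mixed sites, and in unnamed gene models it was 2.33 and 2.48. The classes differed inside the 9 intervals, where the ratio was 0.869 for fixed and 1.54 for mixed sites (odds ratio 1.77, Fisher's exact test, adjusted p = 0.00043). Outside them the difference did not pass the test, with ratios of 1.81 and 2.08 (odds ratio 1.15, Fisher's exact test, adjusted p = 0.23). The intervals were drawn from fixed sites up to 64 reads, so the split also sorts fixed sites by depth. Over 64 reads were 0.188% of fixed sites inside and 45.4% outside, and 12.5% and 40.2% of mixed sites. How far depth accounts for the difference between inside and outside was not tested. All these tests compare 2 lists of sites in 1 library, and sites of 1 gene are linked. With 1 coding site per gene and class the odds ratio was 1.79 (Fisher's exact test, adjusted p = 6.3e-06).

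The 3′ UTR held 31.2% of fixed and 29.3% of mixed sites, and the 5′ UTR, with gained start codons, held 6.64% and 6.75%. Coding sites made up 61.8% of fixed and 63.0% of mixed sites, a difference that did not pass the test (odds ratio 1.05, Fisher's exact test, adjusted p = 0.22). The coding share was lower at mixed sites with 1 site per gene and class (odds ratio 0.425, Fisher's exact test, adjusted p = 7e-19), up to 64 reads (0.824, adjusted p = 6.5e-05) and in named genes (0.896, adjusted p = 0.036), and higher with at least 20 reads (1.36, adjusted p = 3.8e-11). By the annotation of each site alone, stop codons were gained at 31 fixed and 83 mixed sites, which is 2.36 and 8.08 per 100 synonymous sites. They were lost at 32 fixed and 28 mixed sites. Of the amino acid changes, 55.2% (52.4% to 57.9%) at fixed sites and 51.2% (49.0% to 53.4%) at mixed sites had a score of 0 or above in the BLOSUM62 matrix, in which common exchanges score high. The most frequent exchange was I to V at fixed sites (40 sites) and E to K at mixed sites (47 sites).

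The base changes differed as well. Transitions, the exchanges of A with G or of C with T, made up 70.8% (69.4% to 72.2%) of fixed and 51.5% (50.1% to 52.8%) of mixed sites (odds ratio 0.437, Fisher's exact test, adjusted p = 1.6e-82). The ratio of transitions to transversions was 2.43 and 1.06. Transitions at CpG dinucleotides, where methylated cytosines mutate often, were 11.9% of fixed and 8.27% of mixed sites. At 23.3% of mixed sites (22.2% to 24.5%) and 3.06% of fixed sites (2.57% to 3.62%) the alternate base made or lengthened a run of 5 or more equal bases, as in the Cdkn2a and Myc windows above. The alternate base of these mixed sites was C on the reference strand at 75.9% and G at 11.9%, and 60.7% lay in a 3′ UTR. Their median depth was 21 reads and their median share 26.7%. Without the run-making sites transitions were 71.4% of fixed and 57.6% of mixed sites (odds ratio 0.544, Fisher's exact test, adjusted p = 1.2e-38).

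**Figure D3:**
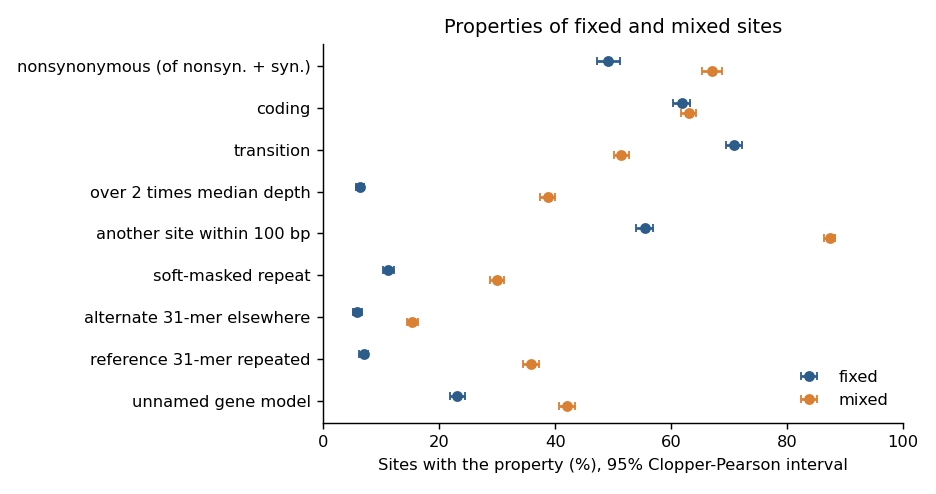
Share of fixed (blue) and mixed (orange) O48 sites with each of 9 properties (percent, horizontal axis), with exact 95% Clopper-Pearson intervals as bars. The classes are close together only for the coding share (61.8% and 63.0%), and transitions are the 1 property with a clearly higher share at fixed sites (70.8% against 51.5%).

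Mixed sites lay more often than fixed sites in repeated sequence. Their median depth was 48 reads (quartiles 26 and 101), against 31 reads (26 and 37) at fixed sites. Over 64 reads were seen at 38.7% (37.4% to 40%) of mixed and 6.31% (5.60% to 7.08%) of fixed sites. Depth comes from the same reads as the share, and it limits which low shares can be seen, so these values are a description with no test. The 31 bases around the site were found more than once in the reference at 35.8% of mixed and 6.96% of fixed sites (odds ratio 7.47, Fisher's exact test, adjusted p = 1.1e-268). The same 31 bases with the alternate base in the middle were found elsewhere at 15.3% of mixed and 5.87% of fixed sites (odds ratio 2.91, Fisher's exact test, adjusted p = 6.4e-51). Soft-masked repeats held 30% and 11.2% (odds ratio 3.41, Fisher's exact test, adjusted p = 4.5e-114). Another fixed or mixed site within 100 bp was seen at 87.4% of mixed and 55.4% of fixed sites (odds ratio 5.57). This measure is taken from the called sites themselves, and 1 pair of neighbours counts for both sites, so its p-value is not read as a result. With 1 site per gene and class the shares were 55.3% and 22.0%. Unnamed gene models held 42.1% of mixed and 23.1% of fixed sites (odds ratio 2.42, Fisher's exact test, adjusted p = 6.7e-86). Sites of 1 gene share its name and are linked. Taken with 1 site per gene and class, unnamed models held 33.7% and 20.8% (odds ratio 1.94, Fisher's exact test, adjusted p = 1e-09). The odds ratio was then 3.47 for the repeated 31-mer, 2.13 for the alternate 31-mer and 10.1 for soft masking (Fisher's exact test, adjusted p = 8.1e-20, 2.2e-06 and 3.5e-98). Sites with ordinary depth and neither a repeated nor a copied 31-mer were 84.0% of the fixed but 37.1% of the mixed sites. At these places the nonsynonymous share was 47.6% for fixed and 60.6% for mixed sites (odds ratio 1.69, Fisher's exact test, adjusted p = 6.3e-10).

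**Figure D4:**
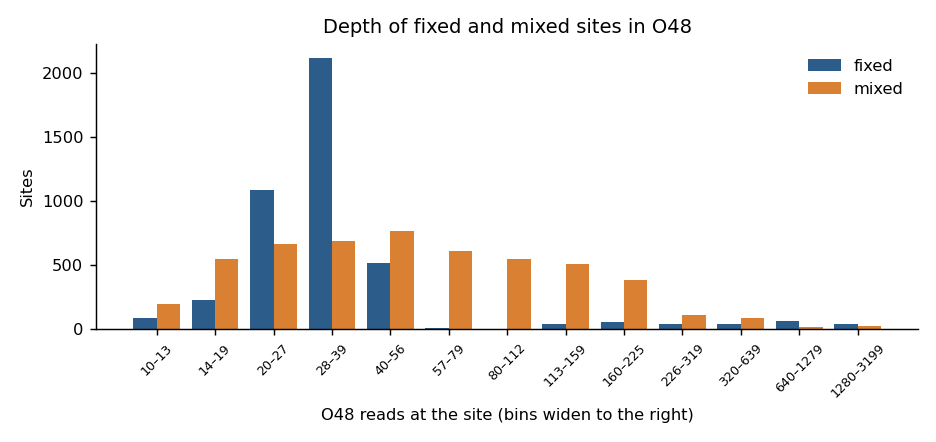
Number of fixed (blue) and mixed (orange) sites (vertical axis) in bins of O48 read depth (horizontal axis, bins widening to the right). Most fixed sites lie from 20 to below 40 reads, around their median of 31, and mixed sites reach far higher depths, with an upper quartile of 101 reads.

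In total, 1713 genes and gene models had a fixed or mixed site, 881 a fixed one and 921 a mixed one. Both kinds occurred in 89, which is 10.1% of the genes with a fixed and 9.66% of those with a mixed site. Among protein-coding RefSeq genes of the same symbol, 3.09% had a fixed site, 2.85% a mixed site and 1.43% a fixed nonsynonymous site. The gene with most fixed sites was Fat2, an atypical cadherin on chromosome 11, with 96, of which 12 were nonsynonymous and 71 synonymous. Depths in Fat2 ran from 23 to 45 reads. The amino acid transporter gene Slc36a1 had 51, 44 of them in the 3′ UTR, and the exchanger gene Slc24a2 had 50, with 49 in the 3′ UTR. Gm2a, which encodes the GM2 ganglioside activator, had 40. None of the 4 had more than 1 mixed site.

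The 10 genes with most fixed nonsynonymous sites were of 2 kinds. At ordinary depth were the gene models id184391 (43 of 74 fixed sites, over RefSeq Gm19911), id274691 (36 of 59, over Gm9926), id232769 (22 of 37) and id48460 (16 of 23, over 4921511C10Rik). With them were Gm4858 (22 of 49), Gm19948 (21 of 27) and Nes, the gene of the neural progenitor filament nestin (18 of 34). Nes had no mixed site, and its depths were 13 to 46 reads. At high depth were the gene model id178949 over Pisd-ps1 (32 of 52, median 482.5 reads), Sfi1, which encodes a centrin-binding spindle protein (26 of 44, median 1035.5 reads), and Rn45s, the 45S ribosomal RNA precursor (24 of 35, median 2400 reads). The amino acid changes of Rn45s are those of the table, although ribosomal RNA is not translated. Together, 272 fixed sites were over 64 reads, in 29 genes, and every read had the alternate base at 5 of them, against 97.2% of the fixed sites up to 64 reads. The 5 deepest fixed nonsynonymous sites were all in Rn45s, at 2582 to 3076 reads and shares of 99.1% to 99.5%.

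The 10 genes with most mixed sites included 5 vomeronasal receptor loci. Heatr7b1, a HEAT-repeat gene on chromosome 1, had 161 mixed sites at a median share of 18.1%, and the neighbouring gene model id8260, over the centromere protein gene Hjurp, had 62 at 17.9%. The vomeronasal receptor genes Vmn2r121, Vmn2r115, Vmn2r114 and Vmn2r117, which encode pheromone receptors, had 111, 103, 75 and 70 mixed sites at median depths of 56 to 82.5 reads. LOC670059, which lies over Vmn2r125, had 61. The mucin gene Muc4 had 100, with median depth 46, and C130026I21Rik and Spt1 had 59 each. All 10 had median shares between 14% and 52.9%. The 5 deepest mixed nonsynonymous sites were the one in ND6 and 4 in Rn45s, at 2474 to 2863 reads, with shares of 11% to 65.7%.

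Gene families were counted by the deposited symbol, and family sizes by RefSeq symbols. Members under other names, such as LOC670059 over Vmn2r125 and Gm13251 over Zfp992, were not counted, so the shares of genes can be too low. Olfactory receptors, the odorant receptors of the nose, had 439 fixed sites in 125 of 1428 genes and 60 mixed sites in 13 genes. Of the 439, all but 1 lay in the 9 intervals and 388 in the one on chromosome 2. At fixed sites 188 changes were nonsynonymous and 218 synonymous. Vomeronasal receptors had 7 fixed sites in 3 of 359 genes and 463 mixed sites in 10 genes. By these symbols, 2.79% of vomeronasal receptor genes had a mixed site, beside 2.85% of all protein-coding genes. Zinc finger protein genes had 101 fixed sites in 15 and 143 mixed sites in 18 of 448 genes, and the share of these genes with a fixed site, 3.35%, was near the 3.09% of all protein-coding genes. For olfactory receptor genes the share with a fixed site was 8.75%. Mucin genes had 10 fixed and 128 mixed sites, in 2 and 4 of 12 genes (16.7% and 33.3%). Speer genes had 2 and 54, in 1 and 5 of 15 genes (6.67% and 33.3%). Cytochrome P450 genes had 5 and 16, in 1 and 5 of 134 genes (0.746% and 3.73%). Keratin genes had no fixed site, and ribosomal protein genes had 8 fixed and no mixed site. No test was run on these counts.

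Lists of genes for functions central to this line held fixed sites in 1 gene. None of 27 pluripotency genes had a fixed site, and Lifr, the LIF receptor gene, and Myc had 2 and 3 mixed sites in untranslated regions. In ΔDSM-O48-1 these 5 sites had 0 alternate reads among 11 to 16, and in ΔDSMD-O48-2 they had 3 to 6 among 13 to 23. None of 27 genes for imprinting and DNA methylation had a fixed or mixed site. Of 29 genes for the DNA damage response and chromosome segregation none had a fixed site, and Cdkn2a and Mdm2 had 4 and 1 mixed sites in the 3′ UTR. Of 20 genes for myotonic dystrophy and muscle, Celf1, which encodes an RNA-binding protein, had 5 fixed sites in the 3′ UTR at 22 to 34 reads, all with every read alternate, and the chloride channel gene Clcn1 had 2 mixed sites. No listed gene had a fixed nonsynonymous site. Beside these counts, 3.09% of all protein-coding genes had a fixed site and 2.85% a mixed site.

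Fixed sites annotated as gaining or losing a stop, changing a start or hitting a splice site numbered 75 in 57 genes, 52 of them in unnamed gene models. Every O48 read had the alternate base at 61 of the 75, beside 3929 of all 4310 fixed sites. Of the 75, 53 (70.7%) lay in the 9 intervals, beside 86.5% of all fixed sites. Among the 141 mixed sites of these kinds, 7 (4.96%) lay there, near the 5.43% of all mixed sites. Stop codons were gained in Bace2 (S204*, 27 reads), Kir3dl1 (L396*, 32 reads), Trim40, an E3 ubiquitin ligase gene (E60*, 35 reads), and the olfactory receptor genes Olfr1010 (Q310*, 35 reads) and Olfr51 (R165*, 31 of 35 reads). Sfi1 gained 2 at depths of 867 and 1101 reads and shares of 93.9% and 96.6%. In Vmn2r115 a site annotated as Q411* had the alternate base in 100 of 121 reads. The next base of this codon was also a fixed site, annotated as Q411R, with a share of 82.9%. With both shares above 80%, most reads carry both bases. The codon cag is then tgg, which is not a stop. Stop codons of the reference were annotated as lost in Scnm1 (32 of 32 reads) and in Muc4 (34 reads). In the skin barrier gene Flg2 this was so at 2 places (43 and 28 reads). Further ones were in the pseudogene Olfr1273-ps (42 reads), at 2 places in Rn45s and in Rn18s. In Flg2 a synonymous coding site is annotated downstream of both codons. Muc4 has mixed sites annotated as lost stops before and after its fixed one. These codons cannot all end a reading frame of their gene, and the ribosomal RNA of Rn45s is not translated. Such sites are therefore given as annotated only. Start codons changed in Mybpc3 (M1I, 27 reads), in Agps, an enzyme of ether lipid synthesis (M1L, 26 reads), and in Gm9524 (M1L, 18 reads). Splice donor sites changed in Cd84, a leukocyte receptor gene (23 reads), Vezf1, a transcription factor gene (11 reads), the actin nucleator gene Spire1 (35 reads), Wdr96 (15 reads) and Ugt1a10, a glucuronosyltransferase gene (174 of 188 reads). The gene 2010315B03Rik changed at a splice acceptor (32 reads). The other sites were in gene models, led by id184391 with 5, id232769 with 4 and id178949 and id274691 with 3 each.

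The later lines gave the same measure in libraries that the rule did not use. Both descend from O48, so they are not independent cultures. Among the 4256 fixed sites with at least 10 reads in both later lines, 4188 (98.4%, 98.0% to 98.8%) were at 80% or more in both. No fixed site fell below 5% in either line. At 3886 sites with every O48 read alternate and at least 10 reads in both later lines, 3886 were at 80% or more in both. The 72 fixed sites below 80% in a later line had a median share of 83.8% in O48, and 54 of them were over 64 reads. Of the mixed sites, 3575 of 4971 (71.9%, 70.6% to 73.2%) were mixed in both later lines. This share was 90% (88.6% to 91.3%) for mixed sites over 64 reads and 60% (58.2% to 61.7%) for the others, and 36.6% (33.8% to 39.6%) for the run-making mixed sites. The shares of mixed sites in O48 and in the later lines had a Pearson correlation of 0.74 in both cases, over 5067 and 5019 sites that share libraries and neighbouring positions. In ΔDSM-O48-1, 924 mixed sites were below 5% and 38 at 80% or more, and in ΔDSMD-O48-2 these numbers were 884 and 73. Whether such differences come from the cultures or from the calling was not tested.

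**Figure D5:**
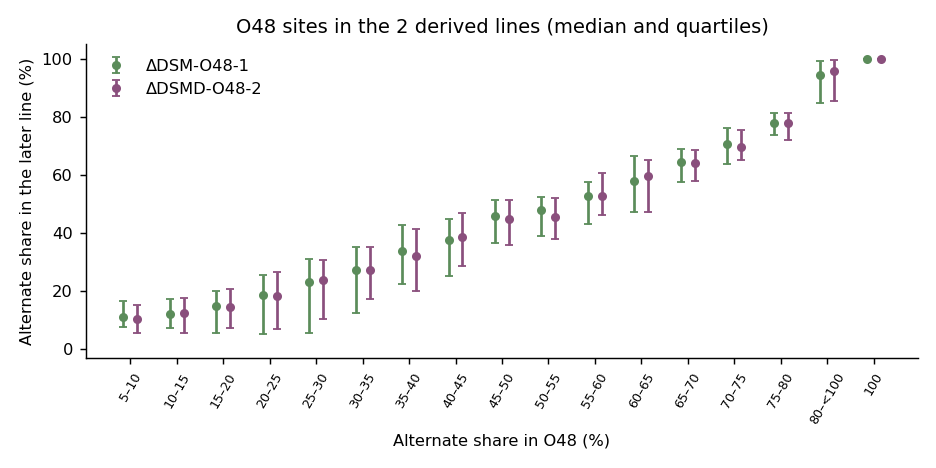
Share of alternate reads in ΔDSM-O48-1 (green) and ΔDSMD-O48-2 (purple) on the vertical axis (percent), for sites binned by their share in O48 on the horizontal axis (percent). Points are medians over sites and bars the quartiles. The medians rise with the O48 share, and the sites with every O48 read alternate have medians of 100%.

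The reads of the 2 later lines were compared at each site, which does not use the O48 reads. Over all 10861 positions with at least 10 reads in both lines, 4.36% differed after Benjamini-Hochberg adjustment (two-sided Fisher's exact test per site). Of the fixed sites 24 of 4256 (0.564%) differed, and of the mixed sites 246 of 4971 (4.95%), a share near that of all positions. The 24 fixed sites were in 3 gene models, id168241 with 13, LOC100504180 with 8 and id255114 with 3, all at high depth. The same id168241 and LOC100504180, on chromosome 10, also led the mixed sites that differed, with 19 each, ahead of Vmn2r114 with 10. The smallest p belonged to a difference at a mixed site of Sfi1, G3193443A, whose share was 9.32% in the parental line and 9.71% in ΔDSMD-O48-2, with no alternate read among 1150 in ΔDSM-O48-1. ΔDSMD-O48-2 was made from ΔDSM-O48-1, so the base went unread in the line between. The same held at C15473091T of LOC100861702 (10.5%, 0% of 499 reads and 11.9% along the lineage). At T85088435G of A530032D15Rik the share was 0% only in ΔDSMD-O48-2 (612 reads). Of 1591 positions with an O48 share below 5%, 1552 had 0 alternate reads. Whether counts of 0 come from the cultures or from the calling was not tested. The per-site tests compare 2 libraries, and their lines differ in passage as well as in genotype.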

How the data were processed

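Genomic DNA of O48, ΔDSM-O48-1 and ΔDSMD-O48-2 was sequenced, 1 library each. According to the submitters' processing notes, CASAVA 1.8.2, BWA 0.7.12, SAMtools, Picard and GATK were used with build mm10. Their settings are not given in the sources used here. The authors deposited 1 joint table for the 3 lines, listing exonic single-nucleotide variants with whole-number counts of all reads, reference reads and alternate reads and a genotype for each line. These deposited counts are not normalized. The column code 048 was read as O48. A list of called positions says nothing of positions it leaves out. The 3 genotype quality columns were not used.

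From the 14685 entries, 1 per position was kept, with the effect of highest impact. The reference base matched GRCm38.p6 at all 11544 single-base positions. The share is alternate reads over reference plus alternate reads. In O48 at least 10 reads were required, and the reads at fixed and mixed sites summed to 760491. At the median depth of 32 reads, a count of 0 leaves shares of up to 9.38% open. Reference sequence was searched for 31-mers on both strands of chromosomes 1 to 19, X and Y. Exon length, gene overlap and family sizes came from RefSeq. Unnamed gene models are those called Gm with a number, Rik, LOC, id or a clone name.

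For each property the 2 classes were set against each other by Fisher's exact test (two-sided), with Benjamini-Hochberg adjustment over 9, and intervals are Clopper-Pearson at 95%. There were no replicates, so p-values do not include the spread between cultures. Named are the genes with a fixed stop, start or splice change (unnamed models mostly by count), the 10 genes with most fixed nonsynonymous and with most mixed sites, listed genes, sites at the boundary and the deepest sites. Older symbols counted for a listed gene only where RefSeq placed it there. Members and lists were chosen with earlier results of these data known. Alternatives changed the depth minimum, boundaries, genotype, k-mer length, distance, gene and chromosome sets.

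On simulated data the 31-mer search classed 400 of 400 planted sites as made, and Fisher's test called 6 of 200 comparisons without a difference. Each simulated site was drawn independently there, so linked sites were not covered. The test between the later lines recovered 132 of 200 sites moved by 40 points. Tests used scipy 1.17.1, tables pandas 2.3.3 and numpy 2.4.6, the 31-mer search numba 0.67.0, the BLOSUM62 matrix biopython 1.88 and plots matplotlib 3.10.9, under Python 3.11.15.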

Additional observations from a re-analysis of the deposited data

How the results depend on the processing

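Of 124 alternatives, 112 kept the direction and side of the threshold, or the value within its limits. These include every one run for transitions, depth, neighbours, soft masking, 31-mers and gene models, and 14 of 15 for the nonsynonymous share, whose exception, outside the intervals (odds ratio 1.15), was chosen after seeing the data. Depth and neighbours are counted here although their p-values are not read as results. Some alternatives could not change a value. Keeping the first entry of a position alters only its annotation, and a boundary moved for 1 class leaves the other class as it was. The count of 112 therefore overstates how far the results were tried. The coding share was the least stable. Its odds ratio rose to 1.36 with at least 20 reads and to 1.12 with the authors' genotypes, both past the threshold. It reversed to 0.962 with mixed sites from a share of 0.2, to 0.425 with 1 site per gene, to 0.824 without sites over 2 times the median depth and to 0.896 without unnamed gene models, and the last 3 of these reversals passed the threshold too (Fisher's exact test, adjusted p = 7e-19, 6.5e-05 and 0.036). The cause was not tested. Mixed sites from 0.2 numbered 3232. The share of mixed sites that were mixed in both later lines became 80.8% with at least 20 reads, 70.5% with no depth minimum and 61.1% from a share of 0.2. That of fixed sites was 99.4% from a share of 0.9. No paired analysis was possible because each line has 1 library. Depth limits the mixed class: shares under the limit of a 0 count cannot be told from none. Reads of repeated sequence cannot be assigned to 1 copy.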
